A study of Mus musculus with 6 samples.

Results

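Resident and scavenger macrophage genes were followed in the corpus of the mouse stomach, its acid-secreting region, after oral dexamethasone. The set holds 10 genes of 19919 measured. They were chosen by symbol, with the dexamethasone and control values of these same arrays already known. Their changes are therefore given as a description, without a test, and nothing is supported with them. The 10 probe sets are 93671_at (Cd163), 114332_at (Lyve1), 14276_at (Folr2), 17533_at (Mrc1), 192187_at (Stab1), 13733_at (Adgre1), 11629_at (Aif1), 12978_at (Csf1r), 13051_at (Cx3cr1) and 12772_at (Ccr2). Each stands for 1 gene and carries 1 log2 expression value per array.

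All mice were wildtype Balb/c females, 8 to 12 weeks old. In the dexamethasone group (n = 3 arrays), they drank water holding 50 mg/l of dexamethasone, a synthetic glucocorticoid, for 3 days, with the solution changed on day 2. In the control group (n = 3 arrays) they were untreated. The RNA came from whole corpus tissue, so each value averages all cells of the sample. The 3 arrays per group are biological replicates per the labels, which do not say whether animals were pooled.

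Tissue macrophages settle in an organ before birth or arrive later as blood monocytes, and signalling through the receptor encoded by Csf1r keeps both kinds alive. Many resident macrophages carry scavenger receptors, which bind and internalise altered proteins, glycans and haemoglobin complexes. Glucocorticoids are known to raise CD163 on cultured human monocytes and macrophages. In the gut wall, macrophages lie in the mucosa and in the muscle layer.

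Promoter windows are shown for Cd163, Folr2 and Aif1, as genes with larger changes in each direction whose windows were at hand. They come from RefSeq (build GRCm38.p6) and run from 250 bases before to 50 bases after the annotated gene start. Windows of 7 members were used, 8 windows in all, since Folr2 has 2 annotated starts. Lyve1, Adgre1 and Csf1r are not among these members. Capitals mark the hexamer TGTTCT or AGAACA, to which a single subunit of the glucocorticoid receptor can bind, the hexamer GAGGAA or TTCCTC found in sites of the macrophage factor PU.1, and the AP-1 motif TGANTCA.
Cd163, chr6:124304401-124304700, plus strand: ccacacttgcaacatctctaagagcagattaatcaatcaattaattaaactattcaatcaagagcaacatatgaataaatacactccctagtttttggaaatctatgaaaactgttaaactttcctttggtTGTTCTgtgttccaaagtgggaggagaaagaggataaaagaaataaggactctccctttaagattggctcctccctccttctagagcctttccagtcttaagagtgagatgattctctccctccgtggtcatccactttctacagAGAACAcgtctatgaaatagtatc
Folr2, first start, chr7:101857141-101857440, minus strand: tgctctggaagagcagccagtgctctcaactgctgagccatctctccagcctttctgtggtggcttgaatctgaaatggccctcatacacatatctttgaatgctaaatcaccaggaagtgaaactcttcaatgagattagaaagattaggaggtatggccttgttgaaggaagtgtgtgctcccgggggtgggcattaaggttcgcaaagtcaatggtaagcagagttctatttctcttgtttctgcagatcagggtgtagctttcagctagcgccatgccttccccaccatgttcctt
Folr2, second start, chr7:101845282-101845581, minus strand: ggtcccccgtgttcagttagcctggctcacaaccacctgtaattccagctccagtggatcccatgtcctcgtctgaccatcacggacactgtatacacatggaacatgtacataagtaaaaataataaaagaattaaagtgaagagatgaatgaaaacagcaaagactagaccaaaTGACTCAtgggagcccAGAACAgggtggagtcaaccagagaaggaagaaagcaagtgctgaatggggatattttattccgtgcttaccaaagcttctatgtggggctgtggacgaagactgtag
Aif1, chr17:35176003-35176302, minus strand: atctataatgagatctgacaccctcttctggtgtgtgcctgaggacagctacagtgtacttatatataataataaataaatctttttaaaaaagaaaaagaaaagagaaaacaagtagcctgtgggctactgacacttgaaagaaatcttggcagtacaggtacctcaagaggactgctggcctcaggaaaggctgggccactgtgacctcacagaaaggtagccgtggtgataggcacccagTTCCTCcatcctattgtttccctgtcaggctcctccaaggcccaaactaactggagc

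Counted from the gene start, the Cd163 window held the receptor hexamer at position -119 and, on the other strand, at position 27. The second Folr2 window held it at position -58, next to an AP-1 match at position -74. The first Folr2 window held none of the 3 motifs. The Aif1 window held the PU.1 hexamer at position -7. Searched on both strands, the receptor hexamer occurred in 2 of the 8 windows, against 19.0% of 32851 promoter windows of the same length, and 2 or more copies occurred in 2.54% of all windows. The PU.1 hexamer occurred in 3 of the 8 windows, those of Mrc1, Stab1 and Aif1, against 28.3% of all windows, and the AP-1 motif in 1, against 7.8%. The motifs TTGCNNAA (C/EBP) and TATAAA occurred in 0 of the 8 windows, against 10.8% and 13.6% of all windows. None of the matches in the printed windows overlapped another. A match is a string of letters and no measured binding site.

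Across the arrays, Pearson correlations over all probe sets ran between 0.983 and 0.996, with array medians from 7.94 to 7.98. The arrays differed in genes of squamous epithelium, which lines the forestomach next to the corpus. The mean of 15 squamous genes was 10.43, 10.48 and 8.70 in dexamethasone replicates 1 to 3, against 8.59, 10.23 and 8.71 in control replicates 1 to 3. High arrays lay in both groups, and changes were also taken within the high and within the low arrays, a split made after the data were seen. The high arrays hold 2 dexamethasone arrays and 1 control, and the low arrays 1 dexamethasone array and 2 controls. Each of these changes therefore rests on 1 array on one side and has no replicate check. Of the 15 squamous genes, 1 rose, 0 fell and 14 did not pass a limma adjusted p of 0.05. Over all genes the shares were 0.798% higher and 1.04% lower. The list median was a log2 change of 0.61. The gene that passed was Krt6a, a keratin gene (log2 change 0.61, limma adjusted p = 0.0362).

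Of the scavenger and endocytic receptor genes, Cd163 and Lyve1 stood higher under dexamethasone by more than 2-fold, and Folr2, Mrc1 and Stab1 by smaller amounts. The lineage genes Adgre1 and Aif1 stood lower, as did Cx3cr1 by a smaller amount, while the groups overlapped for Csf1r and Ccr2. The members thus did not move as a block. All values are on the log2 scale, and each change is the dexamethasone mean minus the control mean with its moderated standard error (SE) from limma.

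**Figure D1:**
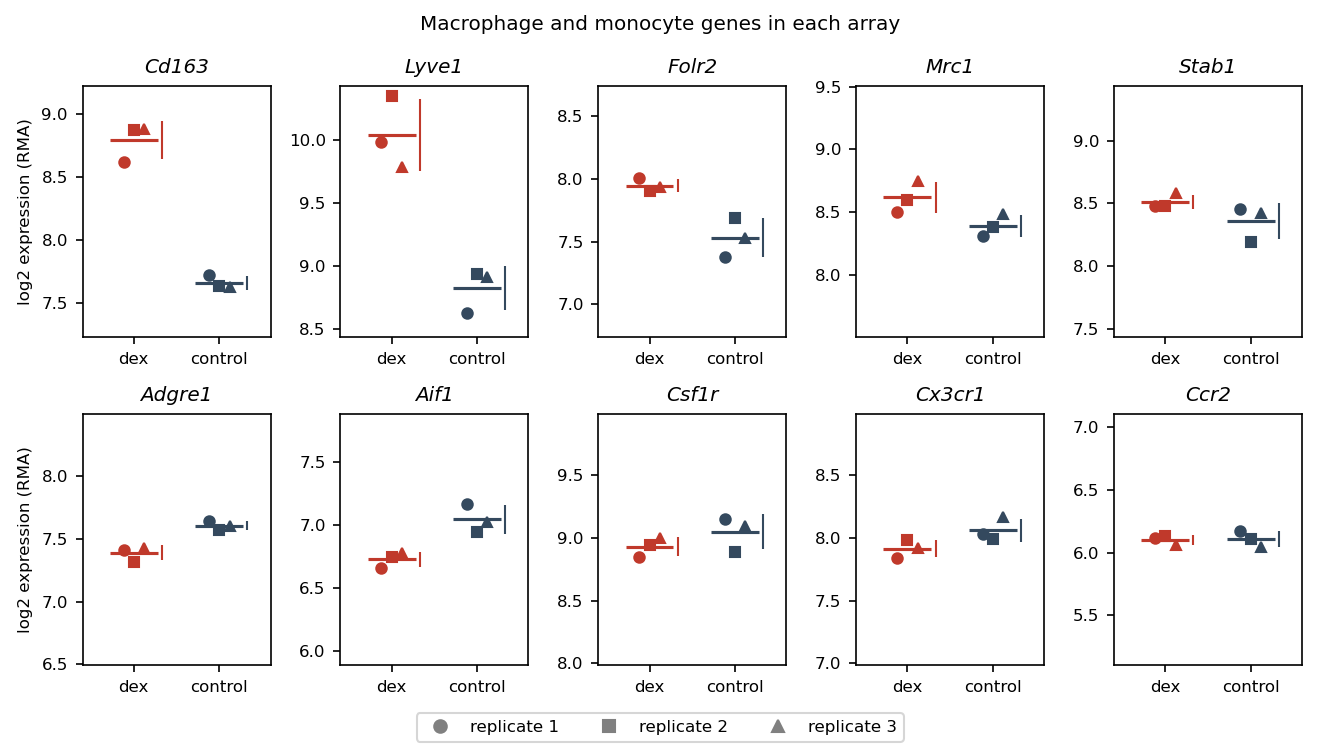
Log2 expression (RMA) of the 10 genes in each array, dexamethasone (red) left of control (dark blue), with 1 symbol per replicate. Horizontal lines are group means, thin vertical lines are 1 SD either way (n = 3), and every panel spans 2 log2 units. The groups lie apart by 0.90 for Cd163 and 0.85 for Lyve1, while those of Csf1r and Ccr2 overlap.

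Cd163 encodes the receptor through which macrophages take up haemoglobin bound to haptoglobin. Its values were 8.62, 8.88 and 8.88 in dexamethasone replicates 1 to 3, against 7.72, 7.63 and 7.62 in control replicates 1 to 3. The groups did not overlap, and the lowest dexamethasone array lay 0.90 above the highest control. The mean was 8.79 ± 0.15 under dexamethasone and 7.66 ± 0.05 in controls (SD, n = 3 each), a log2 change of 1.14 (SE 0.085), or 2.20-fold. The change was 1.12 among the arrays of high and 1.21 among those of low squamous content.

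Lyve1 encodes a hyaluronan receptor found on lymphatic endothelium and on a subset of resident macrophages. It read 9.99, 10.36 and 9.79 in the dexamethasone arrays, against 8.63, 8.94 and 8.91 in the control arrays. All 3 dexamethasone arrays lay above all 3 controls, with a gap of 0.85 between the groups. The log2 change was 1.22 (SE 0.15), or 2.33-fold, with a wider spread than for Cd163 (SD 0.29 under dexamethasone and 0.17 in controls). It was 1.23 within the high and 1.02 within the low squamous arrays.

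Folr2 encodes folate receptor beta, a surface marker of resident macrophages in several tissues. The dexamethasone arrays gave 8.00, 7.90 and 7.93 and the control arrays 7.38, 7.69 and 7.53. The groups did not overlap, and the dexamethasone arrays were the tighter group (SD 0.05, against 0.16 in controls). The log2 change was 0.41 (SE 0.087), or 1.33-fold.

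Mrc1 encodes the mannose receptor CD206, which binds sugars on glycoproteins and microbes. It read 8.51, 8.60 and 8.75 under dexamethasone, against 8.31, 8.38 and 8.49 in controls, a log2 change of 0.23 (SE 0.083). Stab1 encodes stabilin 1, a clearance receptor of macrophages and some endothelium. Its values were 8.48, 8.48 and 8.58 under dexamethasone, against 8.46, 8.20 and 8.42 in controls, a log2 change of 0.15 (SE 0.083). For both genes the lowest dexamethasone array was only 0.02 above the highest control, less than the spread within either group. The mean over the 5 receptor genes was 8.72, 8.84 and 8.79 in the dexamethasone arrays, against 8.10, 8.17 and 8.19 in the control arrays.

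Close relatives could share probes or ligands with these receptors. Folr1, the folate receptor gene of epithelia, had a log2 change of 0.08 (SE 0.075, limma adjusted p = 0.723). Mrc2, a collagen-binding relative of Mrc1, had 0.14 (adjusted p = 0.532), and Stab2, the sinusoidal relative of Stab1, had -0.02 (adjusted p = 0.917). In these 3 relatives the groups overlapped.

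Adgre1 encodes F4/80, the classical surface marker of mouse macrophages, also present on eosinophils. Its dexamethasone values were 7.41, 7.32 and 7.43, below the control values of 7.64, 7.57 and 7.60. The log2 change was -0.22 (SE 0.061). Aif1 encodes IBA1, an actin-binding protein of macrophages. It gave 6.66, 6.75 and 6.78 under dexamethasone, against 7.17, 6.95 and 7.02 in controls, and changed by -0.32 (SE 0.075). In both genes the groups did not overlap, with gaps of 0.14 and 0.17.

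Csf1r encodes the receptor for the growth factors CSF1 and IL-34. It read 8.847, 8.940 and 8.997 under dexamethasone, against 9.15, 8.89 and 9.10 in controls. The groups overlapped, because control replicate 2 lay below 2 of the dexamethasone arrays, and the log2 change was -0.12 (SE 0.085). It was 0.005 within the high and -0.13 within the low squamous arrays. The mean over the 3 lineage genes was 7.64, 7.67 and 7.73 under dexamethasone, against 7.99, 7.80 and 7.91 in controls.

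Cx3cr1 encodes the fractalkine receptor, carried by patrolling monocytes and by many gut macrophages. Its values were 7.84, 7.98 and 7.92 under dexamethasone, against 8.03, 7.99 and 8.16 in controls. The groups were separated by only 0.006, and the log2 change was -0.15 (SE 0.072). Ccr2 encodes the receptor by which classical monocytes leave the bone marrow. It read 6.12, 6.13 and 6.06 under dexamethasone, against 6.17, 6.11 and 6.04 in controls, a log2 change of -0.004 (SE 0.062). Its probe set was brighter than only 6.4% of the genes, so a change in Ccr2 may not be detectable on these arrays, since RMA compresses differences of dim probe sets.

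**Figure D2:**
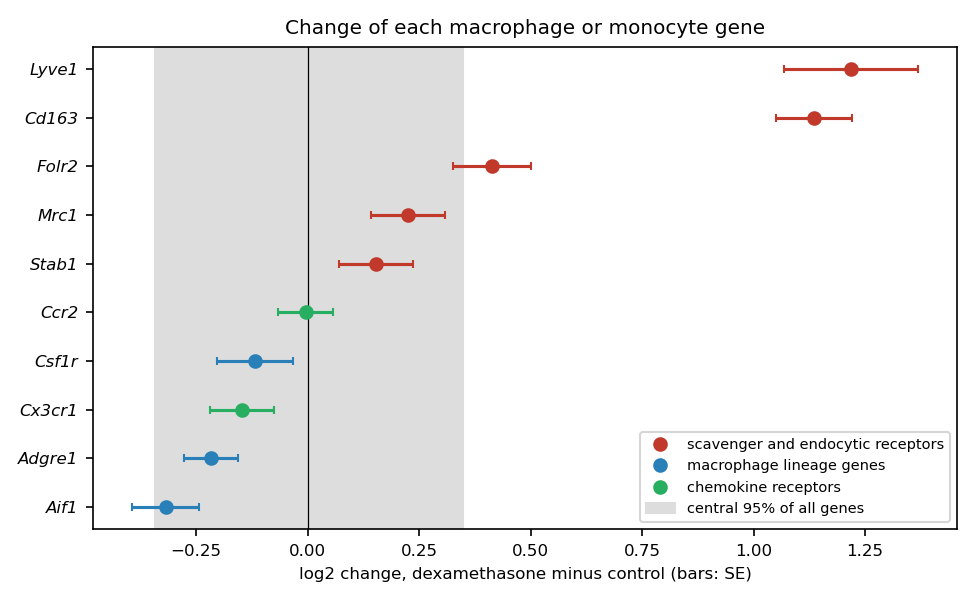
Log2 change (dexamethasone minus control) of each of the 10 genes, with bars of 1 SE, coloured by role. The grey band is the central 95% of all 19919 genes, from -0.34 to 0.35, and Lyve1, Cd163 and Folr2 lie outside it.

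In the limma fit over all genes, 2 of the 10 members, Cd163 and Lyve1, passed an adjusted p of 0.05 on the higher side and 0 on the lower side. Over all genes the shares were 0.798% higher and 1.04% lower. The groups did not overlap in 5 members on the higher side and 3 on the lower side, against 8.84% and 9.46% of all genes. The median change of the members was 0.08, against 0.00 for all genes. As the members were picked with these values known, nothing is read from these counts. Lyve1 was not past the threshold without dexamethasone replicate 1 or without control replicate 3, while Cd163 was past it whichever array was left out.

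Within the groups, no array was at one extreme for every member. Dexamethasone replicate 3 was the highest of its group in 6 members and the lowest in 2. Control replicate 1 was the highest control in 6 members and the lowest in 3. Fewer cells of a type and less RNA per cell cannot be told apart in such tissue samples.

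Other genes of resident macrophages, listed with earlier results of these data known, moved in part. Among the 39 on the arrays, 3 rose, 0 fell and 36 missed the threshold, against 0.798% higher and 1.04% lower over all genes. The list median was 0.04. The groups did not overlap in 10 of the 39 on the higher side and 6 on the lower side. For all genes these shares were 8.84% and 9.46%. F13a1, the A subunit of coagulation factor XIII, carried by resident macrophages and monocytes, read 8.87, 9.19 and 9.28 under dexamethasone, against 7.53, 7.61 and 7.56 in controls. It rose 2.92-fold (log2 change 1.55, SE 0.105, limma adjusted p = 0.00090). Cbr2, a carbonyl reductase expressed by some resident macrophages, read 9.13, 9.28 and 9.12, against 7.83, 8.46 and 8.14 in controls. It rose 2.04-fold (log2 change 1.03, SE 0.15, limma adjusted p = 0.0176).

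Axl, a receptor tyrosine kinase for the uptake of dead cells, rose 1.65-fold (log2 change 0.72, limma adjusted p = 0.00509). It read 10.01, 10.22 and 10.07 in the dexamethasone arrays, against 9.47, 9.35 and 9.33 in the control arrays. The Axl probe set was brighter than 84.6% of the genes, and which cells of the tissue carried it was not tested. Fcrls, an Fc receptor-like gene, had a log2 change of -0.33 (limma adjusted p = 0.0810). F13a1 and Axl passed whichever array was left out, and Cbr2 did not pass without dexamethasone replicate 1, dexamethasone replicate 2 or control replicate 3 (adjusted p = 0.0844, 0.100 and 0.108).

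**Figure D3:**
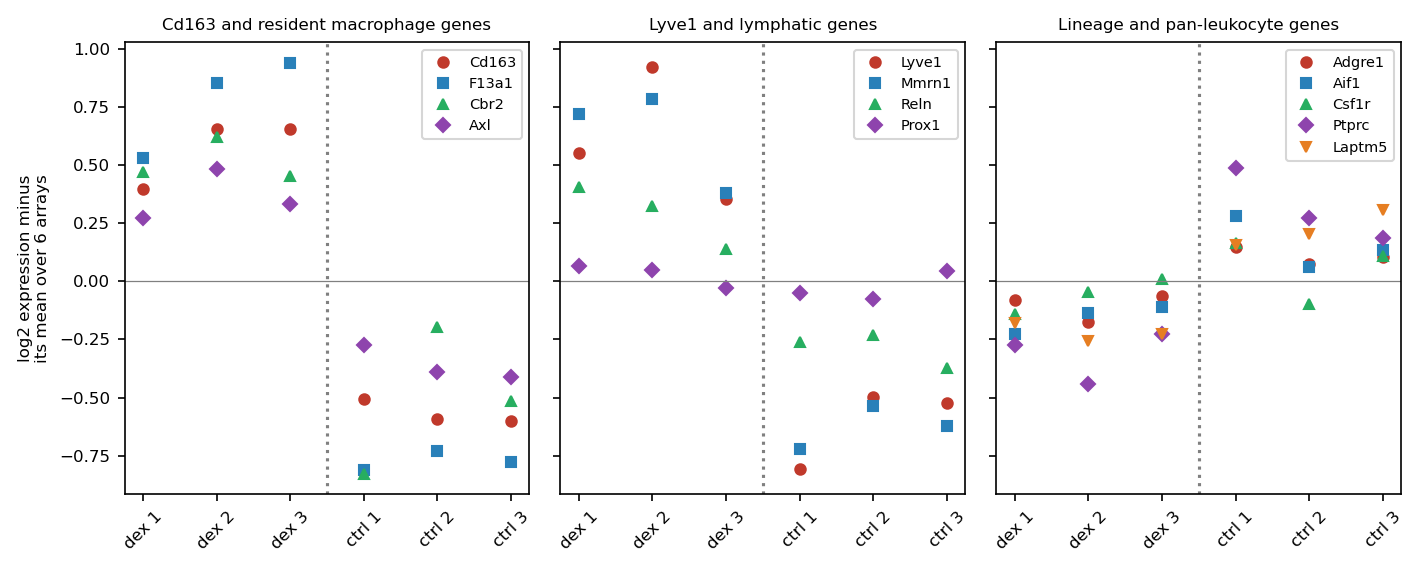
Log2 expression of each gene minus its own mean over the 6 arrays, dexamethasone arrays left of the dotted line and control arrays right of it. Cd163, F13a1, Cbr2 and Axl are above their means in all dexamethasone arrays, Lyve1 is shown with lymphatic genes, and Adgre1, Aif1, Ptprc and Laptm5 are below their means there.

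Of 21 other scavenger receptor genes, 0 passed the threshold in limma (2 were higher and 0 lower where an unadjusted p below 0.05 is used), with a list median of 0.02. Over all 19919 genes, 5.97% were higher and 7.14% lower by that unadjusted p, and the unadjusted counts of small lists are given beside these shares only as a description. Cd36, a fatty acid and lipoprotein receptor that epithelium and endothelium also use, had a log2 change of 0.39 (limma adjusted p = 0.0566). Msr1, the class A scavenger receptor of macrophages, had 0.28 (adjusted p = 0.0969). In both, all 3 dexamethasone arrays lay above all 3 controls. Cxcl16 and Scarf2 had changes of -0.17 and 0.15 (limma adjusted p = 0.382 and 0.426).

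Among 20 monocyte genes on the arrays, 3 rose, 0 fell and 17 missed the threshold, against 0.798% higher and 1.04% lower over all genes. The list median was 0.02. Ly6c1, a surface protein that endothelium carries besides monocytes, read 12.02, 12.02 and 12.04 under dexamethasone, against 11.13, 11.40 and 11.27 in controls (log2 change 0.76, limma adjusted p = 0.00491). Ms4a6c, a membrane gene of monocytes and macrophages, rose 1.41-fold (adjusted p = 0.0121), and Ace, angiotensin-converting enzyme, which endothelium and epithelium also make, rose 1.28-fold (limma adjusted p = 0.0338). S100a8, a granulocyte and monocyte gene, had a change of 0.20 (limma adjusted p = 0.249). Ly6c1 passed whichever array was left out, Ms4a6c did not without dexamethasone replicate 1 (0.0614) or dexamethasone replicate 2 (0.0808), and leaving out any of the 6 arrays ended the call of Ace (adjusted p up to 0.178).

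The growth factor axis around Csf1r and the transcription factors of macrophages gave no call. By limma 0 of 19 genes passed, with 1 higher and 2 lower by an unadjusted p below 0.05, against 5.97% and 7.14% of all genes. Pparg and Runx1, which epithelium also expresses, had log2 changes of -0.41 and -0.42 (limma adjusted p = 0.157 and 0.257). Nr1h3, the oxysterol receptor LXR alpha, had 0.24 (limma adjusted p = 0.213). Csf1 and Il34, named after their values were seen, had changes of 0.07 and 0.08 (limma adjusted p = 0.782 and 0.692).

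Of the 5 ligand genes of CCR2 and CX3CR1, 0 passed in limma, with 1 higher and 2 lower by an unadjusted p below 0.05, against the same 5.97% and 7.14% of all genes. Cx3cl1, fractalkine, read 8.81, 8.73 and 8.85 under dexamethasone, against 9.02, 9.12 and 9.18 in controls, without overlap (log2 change -0.31, limma adjusted p = 0.0858). Ccl2, a main ligand of CCR2, had a log2 change of 0.23 and Ccl12 one of -0.19 (limma adjusted p = 0.240 and 0.260).

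Among 11 genes of haem and iron handling, 2 fell, 0 rose and 9 did not pass, against 1.04% lower and 0.798% higher over all genes. Tfrc, the transferrin receptor gene of most growing cells, read 11.14, 11.13 and 10.99 under dexamethasone, against 11.52, 11.62 and 11.83 in controls (log2 change -0.57, limma adjusted p = 0.0276). Blvrb, biliverdin reductase B, had a change of -0.46 (limma adjusted p = 0.0428). Tfrc lost its call without dexamethasone replicates 1 or 2 or control replicates 2 or 3 (adjusted p up to 0.119). Blvrb lost its call without any array but control replicate 2 (adjusted p up to 0.205). Hbb-b1, a haemoglobin beta chain gene of red cells, read 5.317, 5.639 and 5.887 under dexamethasone, against 6.502, 6.007 and 6.178 in controls (limma adjusted p = 0.152). The Hbb-b1 probe set was brighter than only 4% of the genes. Fth1, the ferritin heavy chain gene, had a log2 change of 0.19 (limma adjusted p = 0.321). Hp, haptoglobin, named after its values were seen, differed within the dexamethasone group, with 8.62, 9.13 and 7.42, against 7.41, 7.56 and 7.31 in controls (limma adjusted p = 0.325).

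Markers of the other cells that could carry these genes were measured beside them. Among 7 lymphatic endothelium genes, 2 rose, 0 fell and 5 did not pass, against 0.798% higher and 1.04% lower over all genes. The list median was 0.24. Mmrn1, multimerin 1, read 8.62, 8.68 and 8.28 under dexamethasone, against 7.18, 7.36 and 7.28 in controls, and rose 2.39-fold (log2 change 1.25, limma adjusted p = 0.00278). Reln, reelin, rose 1.49-fold (limma adjusted p = 0.0187).

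Pdpn, podoplanin, and Flt4, the receptor of VEGF-C, had changes of 0.36 and 0.24 (limma adjusted p = 0.0860 and 0.245). Prox1, the defining transcription factor of lymphatic endothelium, named after its values were seen, read 7.54, 7.52 and 7.45, against 7.42, 7.40 and 7.52 in controls, and the groups overlapped. The list mean was 8.30, 8.26 and 8.13 under dexamethasone, against 7.89, 7.89 and 7.88 in controls. Like Lyve1, the list mean was higher in all 3 dexamethasone arrays than in any control. Among these arrays it was highest in replicate 1, and Lyve1 was highest in replicate 2. The part of lymphatic content in the Lyve1 values was not tested. Mmrn1 passed whichever array was left out, and Reln did not without dexamethasone replicates 1 or 2 or control replicates 2 or 3 (adjusted p up to 0.115).

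Of 7 pan-leukocyte genes, 2 fell, 0 rose and 5 did not pass, against 1.04% lower and 0.798% higher over all genes. The list median was -0.22. Ptprc, the common leukocyte antigen CD45, read 7.30, 7.13 and 7.35 under dexamethasone, against 8.06, 7.85 and 7.76 in controls (log2 change -0.63, limma adjusted p = 0.0228). Laptm5, a lysosomal protein of leukocytes, had a change of -0.44 (limma adjusted p = 0.0187). Cytip and Coro1a, next by p, changed in opposite directions, with log2 changes of 0.22 and -0.22 (limma adjusted p = 0.212 and 0.303). In both of these genes the groups did not overlap. The list mean was 8.48, 8.43 and 8.52 under dexamethasone, against 8.75, 8.63 and 8.72 in controls. Like Adgre1 and Aif1, it was lower in all dexamethasone arrays than in any control, and its part in their values was not tested. The calls of Ptprc and Laptm5 ended without dexamethasone replicates 1 or 2 or control replicates 2 or 3 (adjusted p between 0.0571 and 0.117).

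Among 11 dendritic cell genes, 1 fell, 0 rose and 10 did not pass, against 1.04% lower and 0.798% higher over all genes. Itgax, the integrin CD11c that macrophages share, fell 1.33-fold (log2 change -0.42, limma adjusted p = 0.0465). Leaving out any of the 6 arrays ended its call (adjusted p up to 0.225). Of the 11 genes, 0 were higher and 3 lower by an unadjusted p below 0.05, against 5.97% and 7.14% of all genes. Fscn1 and Clec9a, next by p, had log2 changes of -0.247 and -0.295 (limma adjusted p = 0.145 and 0.171). Of 5 eosinophil genes, which bear on Adgre1, 0 passed in limma, with 0 higher and 1 lower by an unadjusted p below 0.05. Their mean was 6.88, 6.82 and 6.71 under dexamethasone, against 6.75, 6.80 and 6.78 in controls. The 8 T and NK cell genes gave 0 limma calls, with 1 higher and 1 lower by unadjusted p. The 7 blood endothelium genes gave 0 calls, with 2 higher and 0 lower by unadjusted p. For these lists too, the shares over all genes were 5.97% higher and 7.14% lower by unadjusted p. By adjusted p they were 0.798% and 1.04%.

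Markers of the muscle layer, where part of the macrophages lie, also differed. Of 6 smooth muscle genes, 2 rose, 0 fell and 4 did not pass, against 0.798% higher and 1.04% lower over all genes. Actg2 had a log2 change of 0.81 (limma adjusted p = 0.0114) and Cnn1 one of 0.73 (limma adjusted p = 0.0397). Des and Myh11 had 0.60 and 0.58 (limma adjusted p = 0.117 and 0.175). All 6 were higher by an unadjusted limma p below 0.05, against 5.97% of all genes, and the list median was 0.59. The mean over the 6 genes was 12.17, 12.14 and 11.75 under dexamethasone, against 11.43, 11.58 and 11.34 in controls. Within the dexamethasone arrays it was lowest in replicate 3. The part of muscle content in the values of Lyve1, Cd163 and the other members was not tested. Actg2 lost its call without dexamethasone replicates 1 or 2 or control replicate 3 (adjusted p up to 0.0699), and Cnn1 without every array but dexamethasone replicate 3.

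**Figure D4:**
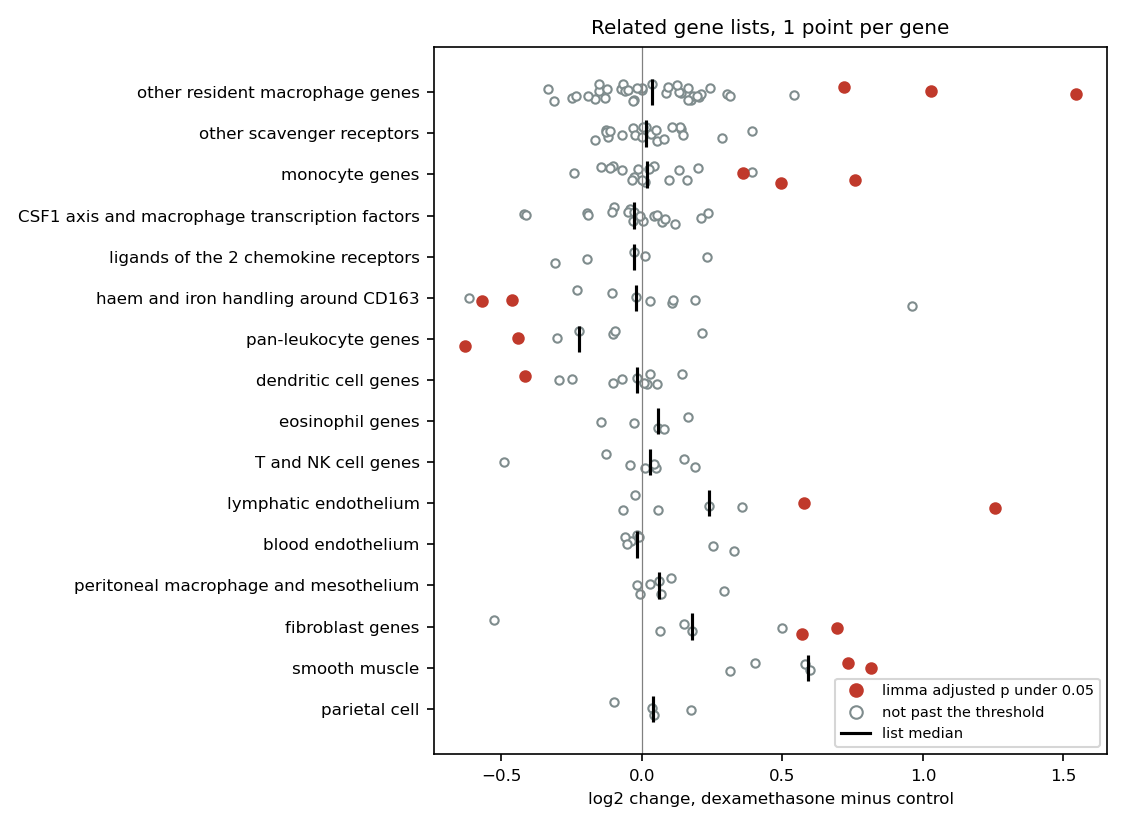
Log2 change (dexamethasone minus control) of each gene in the related lists, 1 point per gene, with list medians as black lines. The squamous list is not drawn. Red points passed a limma adjusted p of 0.05, among them F13a1 at 1.55, Mmrn1 at 1.25 and Ptprc at -0.63.

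The genes whose profiles over the 6 arrays lay nearest to those of the members with the largest changes were found by the root mean square difference of centred log2 values. For Lyve1 they were Mmrn1 (0.11), Galnt15 (0.13) and Spon1 (0.16). For Cd163 they were Obp2a (0.06), Crispld2 (0.08) and Rbp2 (0.09). All 6 had higher values in every dexamethasone array than in any control, with changes from 1.04 for Spon1 to 1.25 for Mmrn1. Crispld2, a secreted protein of the mesenchyme, read 9.62, 10.05 and 10.01 under dexamethasone, against 8.84, 8.59 and 8.71 in controls. The measure includes the difference between the groups.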

How the data were processed

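Total RNA of the mouse gastric corpus was hybridised as biotin-labelled cRNA to single-colour Affymetrix arrays, 3 from dexamethasone-treated and 3 from control mice. The authors deposited log2 expression values, 1 per probe set, produced by RMA. The tools R 2.9, limma and RMA are those listed per the submitters' processing notes. RMA normally includes quantile normalization, so changes are relative to the bulk of the genes. The chip definition version is not given in the sources used here. Of 20985 probe sets, 19921 had 1 symbol, 0 several and 1064 were not listed. For 2 symbols the brighter of 2 probe sets was kept, which left 19919 genes, and 19808 gene IDs were found in RefSeq.

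The groups were compared by limma (version 3.58.1, under R 4.3.3) through lmFit and eBayes, two-sided and without a filter on level, with Benjamini-Hochberg adjustment over all 19919 genes and a threshold of 0.05. The script was tested on simulated data. The members and the gene lists were chosen with earlier results of these data known. Named genes are the members, list genes past the threshold, up to 4 genes of smallest p in each list described, 3 relatives of the members (Folr1, Mrc2 and Stab2) and the 3 nearest profiles of 2 members. Any other gene is marked in the text as named after its values were seen. Of the listed symbols, 11 were not analysed here. The number of arrays limits the precision.

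Alternatives were the replicate number as a block, median centring, quantile normalization, the dimmest 40% of genes left out, a trend and robust prior, array weights, all probe sets, a minimum log2 change of 0.5, the squamous mean as a covariate, and each array left out. The split by squamous content, which was also fitted as a block, was chosen after seeing the data. Same-numbered arrays were checked for pairing by correlating their deviations from the group means, and were not paired.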

Additional observations from a re-analysis of the deposited data

How the results depend on the processing

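Each of the 10 members was refitted under 15 alternatives (14 for Adgre1, Aif1 and Ccr2, which were too dim for the filter on low values). These alternatives include the high or low squamous content as a block and leave out the minimum log2 change of 0.5. All but Ccr2 kept the sign of their change in each of them, and Ccr2 kept it in 10 of 14. Cd163 ranged from 1.09 to 1.22, Lyve1 from 1.06 to 1.35, Folr2 from 0.34 to 0.49, Adgre1 from -0.24 to -0.18 and Aif1 from -0.37 to -0.26. Stab1 ranged from 0.07 to 0.22 and Csf1r from -0.20 to -0.05. The 2 members past the threshold were 5 with array weights and 1 with a minimum log2 change of 0.5, and 1 to 2 with each array left out. The 367 genes past it were 220 with the replicate block, 1776 with array weights, 28 with a minimum log2 change of 0.5, and between 88 and 543 with each array left out. The cause of the rise with array weights was not tested. A required minimum change calls fewer genes by construction. Same-numbered arrays had correlations of deviations of -0.282, 0.351 and 0.231, and not every array correlated best with its own number. With the replicate block, Ace, Ms4a6c, Blvrb, Tfrc, Laptm5 and Itgax lost their calls (adjusted p = 0.0882, 0.0518, 0.0598, 0.0869, 0.0666 and 0.103), and with quantile normalization Cnn1 did (0.0521). With array weights, the 3 called genes of the resident macrophage list were 7 (5 with the squamous covariate), and the lists of other scavenger receptors, the CSF1 axis and the chemokine ligands, which had 0, gave 2, 3 and 3. Dim probe sets, among the members Ccr2 above all, limit what could be detected.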

Other observations

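Fibroblast genes, measured as markers of another cell type of the corpus wall, changed in 2 of 7 cases, both higher. For all genes the shares called were 0.798% higher and 1.04% lower. Pi16, a peptidase inhibitor of adventitial fibroblasts, read 8.77, 8.63 and 8.66 under dexamethasone, against 8.04, 7.99 and 7.95 in controls (log2 change 0.70, limma adjusted p = 0.00309). Pdgfra, a growth factor receptor of fibroblasts, rose 1.48-fold (limma adjusted p = 0.00553). Dcn and Lum, proteoglycan genes of the matrix, had log2 changes of 0.50 and -0.53 (limma adjusted p = 0.106 and 0.179). Of 7 genes of peritoneal macrophages and mesothelium 0 passed in limma, with 1 higher and 0 lower by an unadjusted p below 0.05. The 4 parietal cell genes also gave 0 limma calls, with 1 higher and 0 lower by unadjusted p. Over all genes, 5.97% were higher and 7.14% lower by that unadjusted p.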
